A study of Mus musculus with 9 samples.

Results

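The genes described here are the tumour necrosis factor (TNF) superfamily ligands and receptors that carry a systematic symbol. They were taken as the protein-coding RefSeq genes of GRCm38 (mm10) whose symbol starts with Tnfsf or Tnfrsf followed by a digit, which gave 31 of 21631 genes, 11 ligands and 20 receptors. Open chromatin had been mapped around them by ATAC-seq, in which the transposase Tn5 cuts accessible DNA and tags it for sequencing, in macrophages sorted from the peritoneal cavity of mice. There were 9 samples, 3 in each of 3 groups. Tissue-converted macrophages came from mice that had received 2 ml of thioglycollate, an irritant that recruits monocytes, and then fed tamoxifen without a break for 8 weeks. Monocyte-derived macrophages came from mice that had received 2 ml of thioglycollate and were collected on day 4. Tissue-resident macrophages came from mice for which the labels name no treatment of that group alone. Mice of all 3 groups were given complexes of 5 µg of IL-4 with 25 µg of anti-IL4 every other day, beginning 4 days before harvest, and IL-4 is a cytokine that drives alternative activation. All mice had the genotype Cx3cr1CreERT2-IRES-EYFP/+ Rosa26-stopfl-tdTomato/+, so that tamoxifen marks cells that express Cx3cr1 at that time. The treatments differ along with the origin of the cells, and the design cannot tell these apart.

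TNF superfamily ligands are trimeric proteins, most of them anchored in the membrane, that bind receptors with cysteine-rich repeats. Receptors either carry a death domain, through which they can start apoptosis, or recruit TRAF adaptors and switch on NF-kappaB and MAP kinases, and a few act as decoys. In macrophages the family is best known for the response to TNF, for the formation of osteoclasts through RANK, and for the ligands BAFF and APRIL, which keep B cells and plasma cells alive.

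The files held 1 merged list of peaks per group, with a position and the authors' p-value for each peak and no read counts. The converted list had 15552 peaks, the monocyte-derived 33694 and the resident 24348. Peaks of the 3 lists that overlapped by at least 1 bp were joined to regions, a region was called in a list when it held a peak of that list, and a region was counted for a gene when it touched the gene body or the 10 kb on either side. With 1 list per group there is no spread between samples, no p-value between groups, and the depth is unknown. The p-values printed below belong to a peak within its own list and do not measure differences in openness between lists. A site without a peak may be closed or undetected, and fewer cells with an open site cannot be told apart from a less open site in every cell. Because the lists differ in length, region counts per gene were also taken at equal length, with every list reduced to its 15552 peaks of smallest p-value. Promoter calls and the classes of single regions were taken with all peaks alone.

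The labelled cell type was compared with marker genes. Of 10 macrophage markers, 5 had a converted, 10 a monocyte-derived and 10 a resident region, with 8, 27 and 19 regions in all and 8, 12 and 11 at equal length. Adgre1, which encodes a macrophage surface antigen, had 0 converted, 1 monocyte-derived and 4 resident regions, and Spi1, which encodes PU.1, had 0, 3 and 1 in the same order. The 10 T and NK cell markers had 1, 6 and 3 regions, and 1, 0 and 3 at equal length. Cd3e, Cd4, Cd8a, Zap70 and Ncr1 were at 0 in every list, Lck had 1 region in each, Cd3g had 0, 2 and 0, Cd3d and Klrb1c each had 0, 1 and 0, and Foxp3 had 0, 1 and 2. The 8 B cell markers had 6, 10 and 8 regions, and 6, 6 and 5 at equal length. Ms4a1 and Pax5 were at 0 in every list, while Cr2 had 4, 3 and 3, Cd79a 2, 2 and 1, Blnk 0, 4 and 3, Cd79b 0, 1 and 0 and Ebf1 0, 0 and 1. The 6 dendritic cell markers had 4, 18 and 8 regions, with Ccr7 at 0, and 4, 10 and 0 at equal length, so this sum is highest in the monocyte-derived list both ways. The 7 neutrophil markers had 1, 1 and 2 regions, and 1, 0 and 2 at equal length, and the 5 mast cell markers 0. The part of other cell types in the results below was not tested.

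Of the 24 genes of the family with a promoter entry, 9 had a promoter touched by a peak in at least 1 list, beside 7686 of 17274 over all genes. The promoters called in some lists but not in all are printed here beside a few that were called in every list. A missing call may be an undetected site, and these calls were not repeated at equal length. Each runs from 250 bases before to 50 bases after the annotated start, 5′ to 3′ on the gene's strand, from RefSeq on GRCm38.p6, and capitals mark the bases that lay inside a called peak of any of the 3 lists. The promoter of Tnfrsf11a (RANK, the receptor that drives osteoclast formation; chr1:105780473-105780772, plus strand) was called in the converted and monocyte-derived lists.
Tnfrsf11a: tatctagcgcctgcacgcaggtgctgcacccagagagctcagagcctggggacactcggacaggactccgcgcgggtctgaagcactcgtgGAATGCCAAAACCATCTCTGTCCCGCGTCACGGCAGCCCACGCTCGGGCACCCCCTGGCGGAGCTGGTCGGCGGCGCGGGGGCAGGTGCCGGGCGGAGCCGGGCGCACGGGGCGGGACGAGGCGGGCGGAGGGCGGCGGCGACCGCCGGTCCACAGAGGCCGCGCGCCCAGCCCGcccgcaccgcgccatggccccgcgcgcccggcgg
The promoter of Tnfrsf21 (death receptor DR6; chr17:43016305-43016604, plus strand) was called in the monocyte-derived and resident lists.
Tnfrsf21: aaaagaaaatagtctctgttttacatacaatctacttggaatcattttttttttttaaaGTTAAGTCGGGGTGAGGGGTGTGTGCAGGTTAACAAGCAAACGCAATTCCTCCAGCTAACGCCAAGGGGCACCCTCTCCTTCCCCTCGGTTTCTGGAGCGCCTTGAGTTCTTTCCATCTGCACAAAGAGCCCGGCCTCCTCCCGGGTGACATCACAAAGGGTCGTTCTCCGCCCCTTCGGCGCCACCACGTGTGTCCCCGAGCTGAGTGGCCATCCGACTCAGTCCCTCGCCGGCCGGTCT
Promoters of Tnfsf10 (the apoptosis ligand TRAIL; chr3:27316827-27317126, plus strand), Tnfsf8 (CD30 ligand; chr4:63861235-63861534, minus strand) and Tnfrsf1a (TNFR1, the death-domain receptor of TNF; chr6:125349473-125349772, plus strand) were called in the resident list alone.
Tnfsf10: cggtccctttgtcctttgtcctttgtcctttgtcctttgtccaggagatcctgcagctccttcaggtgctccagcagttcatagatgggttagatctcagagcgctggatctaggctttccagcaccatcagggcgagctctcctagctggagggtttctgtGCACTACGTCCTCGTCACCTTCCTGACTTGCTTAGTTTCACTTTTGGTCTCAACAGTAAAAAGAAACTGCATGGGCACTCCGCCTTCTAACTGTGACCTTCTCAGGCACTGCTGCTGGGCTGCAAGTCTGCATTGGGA
Tnfsf8: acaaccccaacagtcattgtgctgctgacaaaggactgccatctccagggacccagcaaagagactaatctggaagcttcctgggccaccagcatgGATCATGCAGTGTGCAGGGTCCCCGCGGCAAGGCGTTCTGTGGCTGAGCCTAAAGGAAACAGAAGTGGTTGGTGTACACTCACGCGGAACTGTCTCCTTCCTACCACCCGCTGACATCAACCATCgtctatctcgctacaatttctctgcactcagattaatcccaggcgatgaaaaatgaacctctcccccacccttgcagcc
Tnfrsf1a: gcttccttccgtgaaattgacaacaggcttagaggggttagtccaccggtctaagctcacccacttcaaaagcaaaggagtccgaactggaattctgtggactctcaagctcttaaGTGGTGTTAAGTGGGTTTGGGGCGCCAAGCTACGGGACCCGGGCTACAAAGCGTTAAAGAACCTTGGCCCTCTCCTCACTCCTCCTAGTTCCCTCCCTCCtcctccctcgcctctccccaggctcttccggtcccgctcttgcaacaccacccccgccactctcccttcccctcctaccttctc
Promoters of Tnfrsf1b (TNFR2, the TNF receptor without a death domain; chr4:145246821-145247120, minus strand), Tnfrsf12a (Fn14, the receptor of TWEAK; chr17:23677400-23677699, minus strand) and Tnfsf13b (BAFF, the B cell survival factor; the second of its 2 entries, chr8:10006383-10006682, plus strand) were called in all 3 lists.
Tnfrsf1b: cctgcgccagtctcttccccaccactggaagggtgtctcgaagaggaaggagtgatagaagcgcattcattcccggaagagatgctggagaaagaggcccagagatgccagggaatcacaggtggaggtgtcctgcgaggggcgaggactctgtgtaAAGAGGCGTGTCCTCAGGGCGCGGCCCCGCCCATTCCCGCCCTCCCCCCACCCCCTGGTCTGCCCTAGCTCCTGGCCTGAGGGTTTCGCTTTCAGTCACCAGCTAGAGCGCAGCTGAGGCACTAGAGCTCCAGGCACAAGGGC
Tnfrsf12a: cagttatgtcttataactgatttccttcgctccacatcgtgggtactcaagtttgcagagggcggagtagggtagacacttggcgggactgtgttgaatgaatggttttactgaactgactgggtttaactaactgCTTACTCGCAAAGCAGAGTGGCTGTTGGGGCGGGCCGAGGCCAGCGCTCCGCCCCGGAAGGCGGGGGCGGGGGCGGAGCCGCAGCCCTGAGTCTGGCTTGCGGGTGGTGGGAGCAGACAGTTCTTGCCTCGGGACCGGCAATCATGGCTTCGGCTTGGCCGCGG
Tnfsf13b: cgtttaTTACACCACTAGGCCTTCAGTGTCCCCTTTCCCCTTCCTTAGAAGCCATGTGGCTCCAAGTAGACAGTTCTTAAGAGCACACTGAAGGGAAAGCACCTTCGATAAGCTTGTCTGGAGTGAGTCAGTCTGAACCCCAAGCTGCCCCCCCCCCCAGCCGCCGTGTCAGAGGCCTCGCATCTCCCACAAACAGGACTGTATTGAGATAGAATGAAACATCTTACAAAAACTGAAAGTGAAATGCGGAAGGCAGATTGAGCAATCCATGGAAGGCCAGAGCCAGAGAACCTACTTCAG
Tnfrsf23 was the remaining gene with its promoter called in every list.

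Around the 31 genes, 64 different regions were called in at least 1 list. At least 1 region lay in the window of 16 of 31 genes in the converted list, of 20 in the monocyte-derived and of 19 in the resident list. Over all 21631 genes 43.2% had a converted, 60.2% a monocyte-derived and 54.0% a resident region, against 51.6%, 64.5% and 61.3% of the family in the same order, so the family lay near the background. At equal length 13 genes had a monocyte-derived and 15 a resident region, beside 45.9% and 45.0% of all genes. The ligands had 7 converted, 13 monocyte-derived and 8 resident regions summed over the 11 genes, and the receptors 22, 47 and 28 over the 20 genes. The windows of the family had a median of 40.2 kb, against 37.3 kb for all genes.

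**Figure D1:**
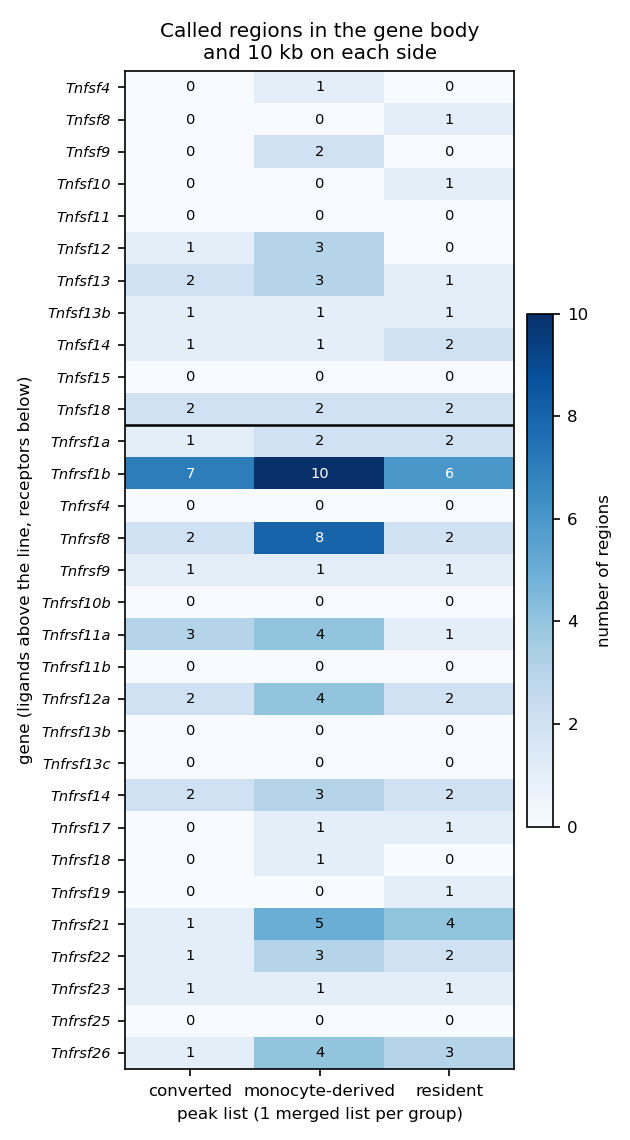
Called regions (color and digits) within 10 kb of the body of each of the 31 genes (rows, ligands above the line and receptors below) in the converted, monocyte-derived and resident lists (columns, 1 merged list per group). Tnfrsf1b, with 7, 10 and 6 regions, and Tnfrsf8, with 2, 8 and 2, stand out, and 8 genes have 0 in every list.

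A region was called in every list for 15 genes and in none for 8, beside 40.9% and 36.5% of all genes. Tnfsf12 had a region in the converted and monocyte-derived lists, and Tnfrsf17 in the monocyte-derived and resident lists. Tnfsf4, Tnfsf9 and Tnfrsf18 had one in the monocyte-derived list alone, and Tnfsf8, Tnfsf10 and Tnfrsf19 in the resident list alone. The shares of all genes called in only some of the lists were not counted, so these numbers have no background beside them. No gene of the family was called in the converted list alone or in the converted and resident lists without the monocyte-derived list. By region rather than by gene, such calls are rare around all genes as well. Of the regions there, 1.53% were converted alone and 1.78% converted and resident.

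The 2 receptors of TNF itself differed in the number of their regions. Tnfrsf1b (Gene ID 21938, chr4:145212368-145246870) had 7 converted, 10 monocyte-derived and 6 resident regions, the most of the family in every list. As many or more regions were found for 0.199% of all genes in the converted list, 0.957% in the monocyte-derived and 1.48% in the resident list. Such shares of genes, here and below, use all peaks and do not allow for window length. The window of Tnfrsf1b was 54.5 kb, against a median of 37.3 kb over all genes. Per 10 kb of window this came to 1.28 converted, 1.83 monocyte-derived and 1.1 resident regions. At equal length the numbers were 7, 7 and 6.

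In every list 6 regions of Tnfrsf1b were called. One covered the start of the gene (chr4:145246714-145246963), with p-values of 2.24e-08 in the converted, 3.55e-06 in the monocyte-derived and 1.85e-07 in the resident list, and holds the capitals of the promoter printed above. A pair inside the gene, about 6 kb from the start (chr4:145240714-145240938 and chr4:145240989-145241238), stood at the smallest p-value that the lists hold, 1e-12, in the monocyte-derived list, against converted values of 8.22e-06 and 4.87e-06 and resident values of 3.93e-06 and 1.52e-06. The widest (chr4:145233764-145234263), 12.9 kb from the start, was at 1e-12 in the monocyte-derived and resident lists and at 1.51e-06 in the converted list. The others lay 24.7 kb inside (chr4:145222039-145222363) and at -7.68 kb from the start (chr4:145254414-145254688). A peak of 75 bp at chr4:145233414-145233488, with a p-value of 3.77e-07, was the 1 region of the whole family that was called in the converted list alone. That is 1.56% of the family's regions, beside 1.53% of the regions around all genes. The 4 monocyte-derived-only regions included a pair within 1 kb of the start (chr4:145246139-145246313 and chr4:145246564-145246638). With every list cut at a p-value of 1e-10, the gene had 0 converted, 3 monocyte-derived and 1 resident regions, which turns the converted minus resident difference of +1 to -1.

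Tnfrsf1a (Gene ID 21937, chr6:125349723-125362483) had 1 converted, 2 monocyte-derived and 2 resident regions, and 1, 1 and 2 at equal length. Its promoter region, 35 bp upstream of the gene (chr6:125349589-125349688), was called in the resident list alone, at a p-value of 8.27e-06. The region called in every list (chr6:125367639-125367988) lay 5.16 kb beyond the gene, inside the neighbouring gene Plekhg6.

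Tnfrsf8 (Gene ID 21941, chr4:145267132-145315164) encodes CD30, a receptor best known from activated lymphocytes. It had 2 converted, 8 monocyte-derived and 2 resident regions, and 2, 7 and 0 at equal length. The monocyte-derived minus resident difference of +6 was reached or passed by 0.938% of all genes, and the converted minus monocyte-derived difference of -6 by 1.92%. Its window, of 68 kb, was longer than the median of 37.3 kb. In the monocyte-derived list alone 6 regions were called. One of them, near the 3′ end of the gene (chr4:145267589-145268113), was 525 bp wide, the widest region of the family, and stood at 1e-12. A pair deeper in the gene (chr4:145270164-145270388 and chr4:145273964-145274088) had a p-value of 7.44e-09, and another pair (chr4:145322189-145322463 and chr4:145323339-145323488) lay upstream, at -7.16 and -8.25 kb from the start. The promoter of Tnfrsf8 was called in no list. The regions shared by all lists lay 14.7 kb inside the gene (chr4:145300314-145300613) and 8.77 kb beyond it on the side of Tnfrsf1b (chr4:145258064-145258363), where the monocyte-derived p-value was 1e-12, against 9.72e-06 in the converted and 8.27e-06 in the resident list. At a p-value of at most 1e-10 in every list, there were 0 converted, 2 monocyte-derived and 0 resident regions.

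Tnfrsf11a (Gene ID 21934, chr1:105780673-105849444), the gene of RANK, had 3 converted, 4 monocyte-derived and 1 resident regions, and 3, 3 and 0 at equal length. A converted minus resident difference of at least +2 was found for 0.416% of all genes, though the window of Tnfrsf11a was 88.8 kb, against a median of 37.3 kb. The region over the start (chr1:105780564-105780738) had p-values of 4.86e-06 in the converted and 6.37e-06 in the monocyte-derived list, and a region 9.59 kb inside the gene (chr1:105790214-105790413) had 3e-06 and 3.85e-07 in the same order. Both were missing from the resident list. A region 6.44 kb inside (chr1:105787039-105787288) was called in every list, at 1.92e-07 in the converted, 1.69e-06 in the monocyte-derived and 1.05e-05 in the resident list. The last, 20.7 kb inside (chr1:105801289-105801488), was monocyte-derived only. None of the 4 reached a p-value of 1e-10, so the gene had 0 regions in every list under that threshold.

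Tnfrsf21 (Gene ID 94185, chr17:43016555-43089188) had 1 converted, 5 monocyte-derived and 4 resident regions, so that the converted list held the fewest. A converted minus resident difference of -3 or lower was found for 2.64% of all genes, though the window of Tnfrsf21 was 92.6 kb, against a median of 37.3 kb. The region over its start (chr17:43016364-43016638) had p-values of 3.2e-06 in the monocyte-derived and 3.93e-06 in the resident list and was missing from the converted list. A region 60.7 kb inside the gene (chr17:43077114-43077313) was called in every list, at 8.22e-06 in the converted, 1e-12 in the monocyte-derived and 8.43e-06 in the resident list. One region 19.7 kb inside (chr17:43036239-43036363) was resident only, at 1.05e-05. At equal length the numbers were 1 converted, 2 monocyte-derived and 1 resident, and the converted minus resident difference was 0.

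**Figure D2:**
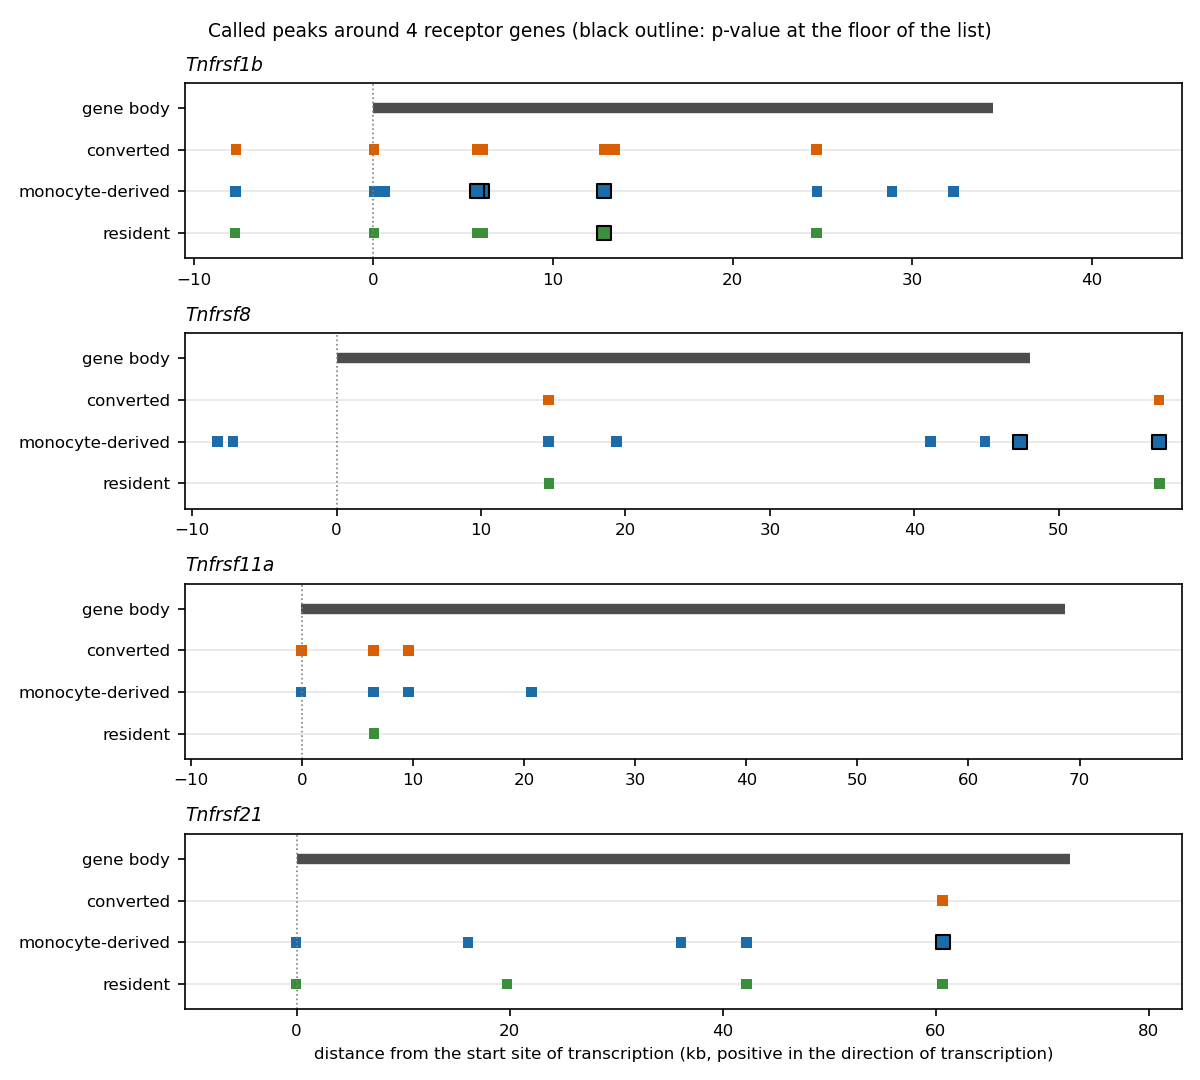
Called peaks around Tnfrsf1b, Tnfrsf8, Tnfrsf11a and Tnfrsf21, by distance from the start of transcription (x axis, kb) and by list (rows: gene body, converted, monocyte-derived, resident), with a black outline where the p-value is the smallest of the lists. Tnfrsf8 has 8 monocyte-derived peaks and 2 in each other list, and the start of Tnfrsf11a lacks a resident peak while that of Tnfrsf21 lacks a converted one.

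Tnfrsf12a (Gene ID 27279, chr17:23675445-23677449) had 2 converted, 4 monocyte-derived and 2 resident regions, and 2, 2 and 1 at equal length. The gene is 2 kb long, and per 10 kb of window it had 1.82 monocyte-derived regions, beside 1.83 for Tnfrsf1b. Its start region (chr17:23677364-23677563) had p-values of 6.93e-06 in the converted, 1.69e-06 in the monocyte-derived and 1.18e-05 in the resident list. The other region called in every list (chr17:23673439-23673663) lay in the neighbouring genes Thoc6 and Hcfc1r1.

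Tnfrsf14 (Gene ID 230979, chr4:154918487-154928620) encodes HVEM, the receptor of LIGHT. It had 2 converted, 3 monocyte-derived and 2 resident regions with all peaks, and 2, 0 and 2 at equal length, where its differences from the monocyte-derived list turn round. All 3 regions lay outside the gene body. The region 0.744 kb from the gene (chr4:154929364-154929688) joined a converted peak (chr4:154929364-154929513) and a monocyte-derived peak (chr4:154929514-154929688) that abut without overlap and that a resident peak spans. Their p-values were 3.7e-07 in the converted, 1.01e-05 in the monocyte-derived and 5.06e-06 in the resident list. Its other region called in every list was at chr4:154911189-154911513.

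Tnfrsf9, which encodes the costimulatory receptor CD137, had 1 region in every list, at -5.67 kb from its first start (chr4:150914314-150914663), with p-values of 3.69e-07 in the converted, 3.55e-06 in the monocyte-derived and 1.5e-06 in the resident list, and at equal length it had 1, 0 and 1. Tnfrsf17, the gene of the plasma cell receptor BCMA, had 0 converted, 1 monocyte-derived and 1 resident region, and that region lay in the neighbouring gene Snx29. At equal length it had 0, 1 and 0. Tnfrsf18, the gene of GITR, had a single monocyte-derived region of 75 bp outside the gene, and 0 regions in every list at equal length. Tnfrsf19, the gene of TROY, had a single resident region (chr14:61046489-61046613) within 1 kb of its 5′ end, at a p-value of 5.63e-06, also called at equal length.

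The mouse genes Tnfrsf22, Tnfrsf23 and Tnfrsf26 lie side by side on chromosome 7, and the first 2 encode decoy receptors of TRAIL. Tnfrsf22 and Tnfrsf23 each had a region at an end of the gene called in every list. For Tnfrsf23 it covered the start (chr7:143685714-143685988) and stood at 1e-12 in all 3 lists. For Tnfrsf22 (chr7:143649564-143649738) it stood at 2.24e-08 in the converted list and at 1e-12 in the monocyte-derived and resident lists. Tnfrsf23 had no other region, while Tnfrsf22 had 1 converted, 3 monocyte-derived and 2 resident regions and Tnfrsf26 had 1, 4 and 3. At equal length Tnfrsf22 and Tnfrsf23 each had 1 region in every list, and Tnfrsf26 had 1, 2 and 1. Of these regions, 2 counted for both Tnfrsf22 and Tnfrsf26. The region of Tnfrsf26 that was called in every list (chr7:143599989-143600338) lay in the neighbouring gene Cars, 7.35 kb from Tnfrsf26. Within the body of Tnfrsf26 itself there were 0 converted, 0 monocyte-derived and 1 resident region (chr7:143614864-143614963, p-value 1.18e-05), which turns its monocyte-derived minus resident difference of +1 to -1.

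Tnfrsf4 (OX40), Tnfrsf13b (TACI), Tnfrsf13c (BAFF receptor), Tnfrsf25 (DR3), Tnfrsf10b (the mouse death receptor of TRAIL) and Tnfrsf11b (osteoprotegerin, the soluble decoy of RANK ligand) had no region in any list.

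Of the 11 ligands, 4 had a region in every list with all peaks, beside 40.9% of all genes. They were Tnfsf13b, Tnfsf13, Tnfsf14 and Tnfsf18. At equal length 1 of the 11, Tnfsf13, remained, beside 7070 of all 21631 genes. Tnfsf13b, the gene of BAFF (Gene ID 24099, chr8:10006229-10036000), had 1 region, over the start (chr8:10006389-10006688), with p-values of 4.7e-06 in the converted, 1.03e-10 in the monocyte-derived and 8.27e-06 in the resident list. Within it the outer bounds of the converted call (chr8:10006389-10006463) and of the resident call (chr8:10006489-10006688) did not overlap. Those of the monocyte-derived call covered both, and such bounds can hold more than 1 peak. At equal length the gene had 1 converted, 1 monocyte-derived and 0 resident regions.

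Tnfsf13, the gene of APRIL, and Tnfsf12, the gene of TWEAK, are neighbours on chromosome 11 and shared 2 regions. Tnfsf13 had 2 converted, 3 monocyte-derived and 1 resident regions, and Tnfsf12 had 1, 3 and 0. At equal length Tnfsf13 had 2, 2 and 1 and Tnfsf12 had 1, 2 and 0. The region of Tnfsf13 called in every list (chr11:69672239-69672688) stood at 1e-12 in each and lay 9.89 kb from the gene, in the neighbouring gene Eif4a1. The region called in the converted and monocyte-derived lists (chr11:69681939-69682138), 0.439 kb from Tnfsf13, lay in Senp3 and within 1 kb of an end of the overlapping gene Tnfsfm13. The monocyte-derived region at the end of Tnfsf12 (chr11:69695864-69695963) also lay in Tnfsfm13. Where regions in or at the ends of other genes were left out, Tnfsf12 had 0 regions in every list, a comparison chosen after seeing the data. The regions inside Tnfsf12 were left out because they also lie in Tnfsfm13. That 0 therefore follows from the annotation of the overlapping gene and does not show that Tnfsf12 lacks regions. With the gene body alone Tnfsf12 had 0 converted, 2 monocyte-derived and 0 resident regions, and Tnfsf13 had 0 in every list.

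Tnfsf14, the gene of LIGHT, had 1 converted, 1 monocyte-derived and 2 resident regions, and 1, 0 and 2 at equal length. The extra resident region lay within 1 kb of the start (chr17:57194039-57194113, p-value 5.63e-06), and the shared one lay at -4.27 kb from the start (chr17:57198314-57198588). Tnfsf18, the gene of GITR ligand, had 2 regions in every list (chr1:161497389-161497613 and chr1:161500789-161501013), both inside the gene, with p-values between 3.2e-06 and 9.72e-06. At equal length it had 2 converted, 0 monocyte-derived and 2 resident regions.

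Tnfsf10 and Tnfsf8 each had a single region, in the promoter and called in the resident list alone. For Tnfsf10 (chr3:27316989-27317138) the p-value was 5.06e-06, and for Tnfsf8 (chr4:63861314-63861438) it was 3.39e-06. Each also had 1 resident region at equal length. Tnfsf9, the ligand of CD137, had 2 monocyte-derived regions, 1 at an end of the gene (chr17:57105264-57105363) with a p-value of 1.01e-05, and Tnfsf4, the ligand of OX40, had 1. Neither had a region at equal length. Tnfsf11, the gene of RANK ligand, and Tnfsf15, the gene of TL1A, had none in any list.

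In the converted against the monocyte-derived list, 15 of the 31 genes had fewer converted regions, 16 had equal numbers and 0 had more. Over all genes 45.3% had fewer and 1.81% more, so the share of the family, 48.4%, lay near the background. At equal length 5 genes had fewer and 4 more, beside 19.2% and 13.2% of all genes. The 5 were Tnfsf12, Tnfrsf8, Tnfrsf17, Tnfrsf21 and Tnfrsf26, and Tnfrsf8, with a difference of -5, stood apart from the other 4, at -1.

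In the converted against the resident list, 9 genes had fewer converted regions, 18 had equal numbers and 4 had more. Over all genes 29.2% had fewer and 4.44% more, beside 29% and 12.9% of the family. The 4 were Tnfrsf11a, Tnfrsf1b, Tnfsf12 and Tnfsf13, and only Tnfrsf11a had a difference above +1. Tnfsf12 and Tnfsf13 owe theirs to 1 shared region. With each region given to 1 gene alone, or without regions in or at the ends of other genes, 2 genes had more. At equal length 5 genes had fewer and 7 more, beside 16.7% and 14.8% of all genes, and the difference of Tnfrsf11a was +3.

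In the monocyte-derived against the resident list, 4 genes had fewer monocyte-derived regions, 14 had equal numbers and 13 had more. Over all genes 7.59% had fewer and 35.0% more, beside 12.9% and 41.9% of the family. The 4 genes with fewer were Tnfsf8, Tnfsf10, Tnfsf14 and Tnfrsf19, 3 of them ligands. At equal length 8 genes had fewer and 10 more, beside 16.2% and 19.8% of all genes, with Tnfrsf8 at +7 and Tnfrsf11a at +3. The 3 comparisons share lists with one another and are not independent.

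**Figure D3:**
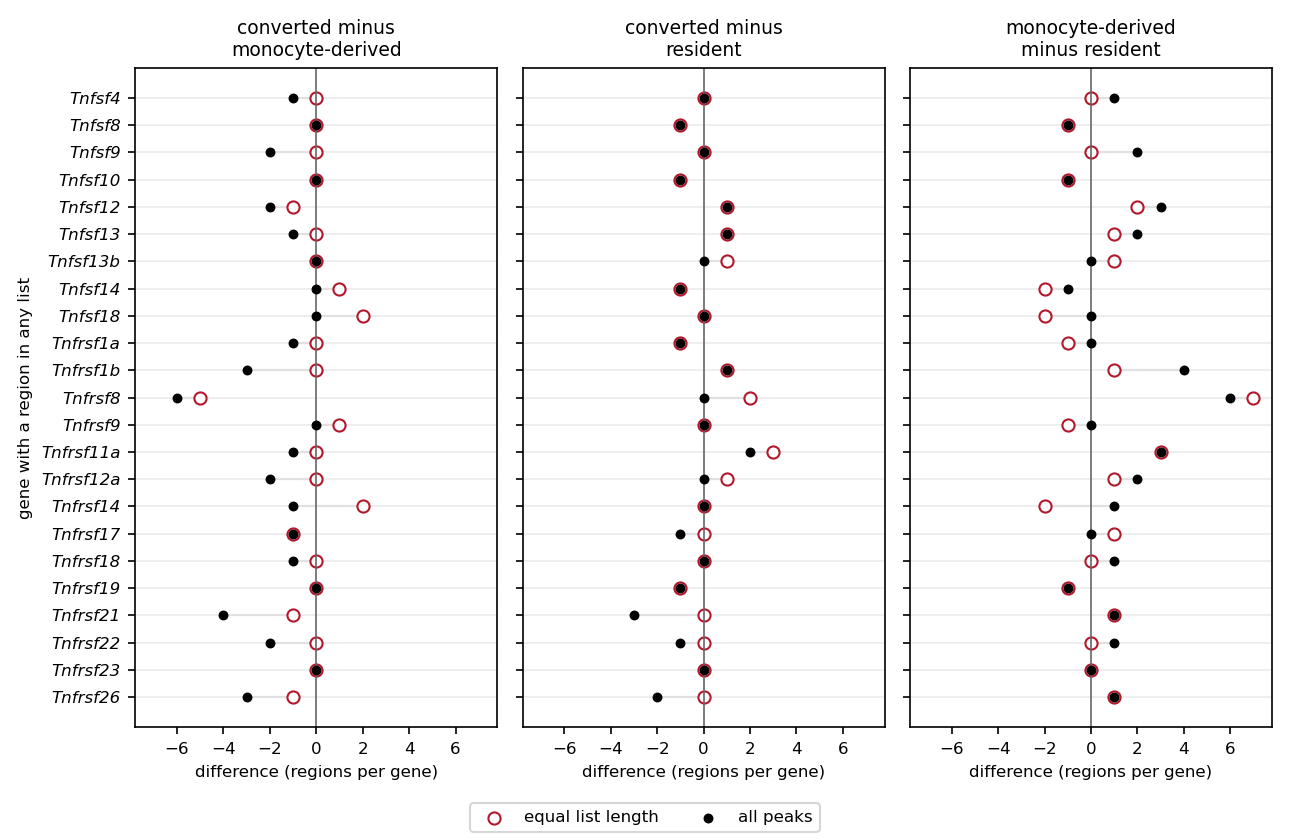
Difference in the number of regions (x axis) for each gene with a region in any list (rows), for converted minus monocyte-derived, converted minus resident and monocyte-derived minus resident (panels), with all peaks (black) and with each list at 15552 peaks (red circles). Tnfrsf8 lies at -6 and -5 in the left panel and at +6 and +7 in the right panel, and Tnfrsf11a at +2 and +3 in the middle panel.

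The 64 regions were sorted by the lists that called them, each region once, with 95% Wilson intervals that cover counting error only. Regions called in all 3 lists numbered 24, or 37.5% (26.7 to 49.7), against 30.6% of the 29675 regions around all genes. Those in the monocyte-derived list alone numbered 25, or 39.1% (28.1 to 51.3), against 37.7%, and those in the resident list alone 7, or 10.9% (5.4 to 20.9), against 10.0%. Those in the monocyte-derived and resident lists numbered 4, or 6.25% (2.46 to 15), against 14.7%. Each of these 4 intervals includes the share over all genes. The intervals take the regions as independent, though 11 of the 64 belong to Tnfrsf1b and 8 to Tnfrsf8, so they may be too narrow. A further 3 regions, or 4.69%, were converted and monocyte-derived, against 3.68%, and 1, or 1.56%, was converted alone, against 1.53%. The converted and resident class held 0 regions, against 1.78%. Of the 7 resident-only regions, 5 lay within 1 kb of an end of their own gene, those of Tnfsf8, Tnfsf10, Tnfsf14, Tnfrsf1a and Tnfrsf19, or 71.4%, while 34.4% of the resident-only regions around all genes lay that near to the end of any gene. Of the 24 regions called in all lists, 9 lay within 1 kb of any gene end, or 37.5%, against 66.6% over all genes. These classes were singled out after their values were seen, and the peaks of the resident list reach higher p-values than the others.

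The RefSeq table held 28 promoter entries of 300 bases for 24 of the 31 genes. A peak touched the promoter of 5 genes in the converted list, 6 in the monocyte-derived and 8 in the resident list. Over the genes of the table the shares were 28.7% in the converted, 42.5% in the monocyte-derived and 35.6% in the resident list. The family's promoters were poor in CpG: the median ratio of observed to expected CpG was 0.38, against 0.574 over all entries. Promoters touched by a peak of any list had a median of 0.468 in the family and 0.814 over all genes, and untouched ones 0.339 and 0.293. The promoters of Tnfrsf11a (0.976), Tnfrsf21 (0.801) and Tnfrsf12a (0.782) had the highest values, while those of Tnfsf10 (0.294) and Tnfsf13b (0.316 and 0.341) had the lowest among the touched ones.

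**Figure D4:**
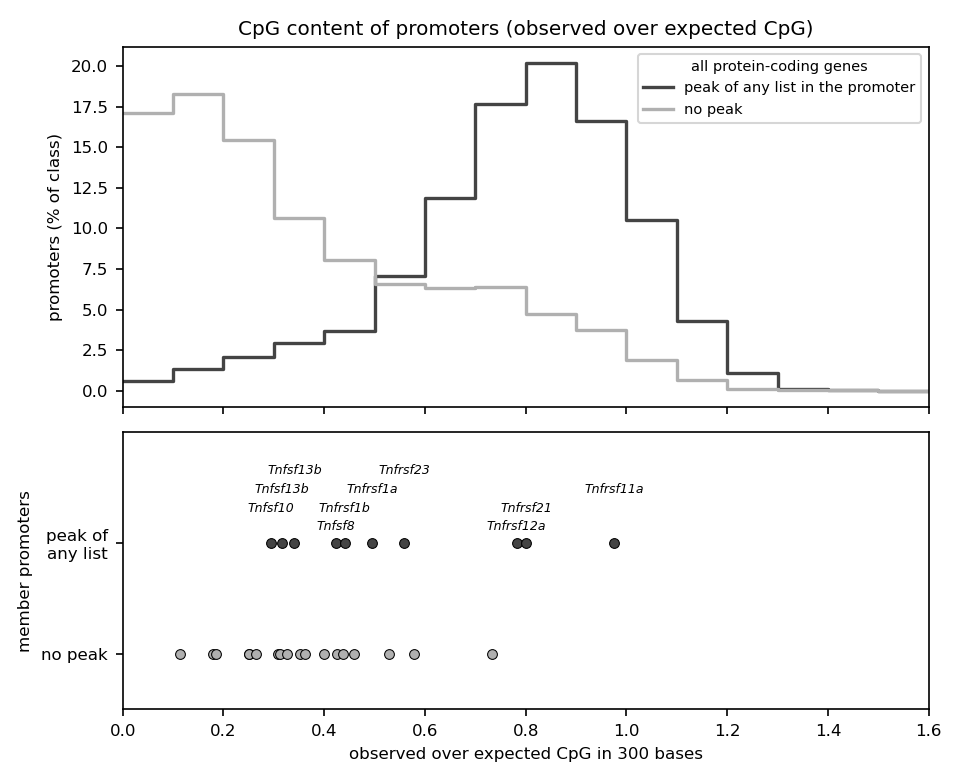
Ratio of observed to expected CpG (x axis) in 300 bases around the start, for all protein-coding genes as shares of touched and untouched promoters (upper panel, % of class) and for the 28 entries of the family as points (lower panel, named where a peak of any list touched them). Tnfrsf11a, Tnfrsf21 and Tnfrsf12a lie with the bulk of touched promoters of all genes, and the other touched promoters of the family lie below it.

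Motifs were searched as letters on both strands, which is a description and no evidence of binding. The AP-1 motif TGANTCA was found in 6 of the 28 entries, or 21.4%, against 7.04% of all entries, and 2 of the 6 are the overlapping entries of Tnfsf13b, which hold the same site. The others were those of Tnfrsf8, Tnfrsf9, Tnfsf13 and Tnfsf14, none of them touched by a peak. An NF-kappaB motif was found in 3 entries, or 10.7%, against 5.03%, those of Tnfrsf9, Tnfrsf13b and Tnfrsf25, none touched by a peak. A STAT6 motif, TTC and GAA with any 4 bases between them, was found only in the 2 overlapping entries of Tnfsf13b, or 7.14%, against 6.41%. The GC box GGGCGG was found in 42.9% against 46.7%, the TATA box TATAAA in 14.3% against 12.7%, the PU.1 motif AGGAAGT in 7.14% against 9.1%, and the composite motif of PU.1 with IRF in 0% against 2.55%.

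Ligands were set beside a receptor they bind in 11 pairs. No share over other pairs of genes was counted, so the numbers of pairs have no background beside them. In the converted list 2 pairs had a region at both genes, those of TWEAK with Fn14 (Tnfsf12 and Tnfrsf12a) and of LIGHT with HVEM (Tnfsf14 and Tnfrsf14). The monocyte-derived list had 4, with the CD137 pair (Tnfsf9 and Tnfrsf9) and the GITR pair (Tnfsf18 and Tnfrsf18) added. The resident list had 2, those of LIGHT with HVEM and of CD30 ligand with CD30 (Tnfsf8 and Tnfrsf8). At equal length 2 converted, 1 monocyte-derived and 1 resident pair had a region at both genes, so that the order of the converted and monocyte-derived lists turns round. The CD137, GITR and CD30 pairs were then called in no list. The only converted region of Tnfsf12 lies outside the gene, in Senp3, and is the one shared with Tnfsf13. With the gene body alone 0 converted, 1 monocyte-derived and 1 resident pair had a region at both genes, with each region given to 1 gene 1, 1 and 2, and without regions of other genes 1, 3 and 2, and in each of these 3 settings the TWEAK pair was missing from the converted list. With all peaks, for RANK, regions lay in the window of the receptor alone in every list. For APRIL with TACI and BAFF with its receptor they lay in the window of the ligand alone. The regions counted for APRIL (Tnfsf13) all lay outside its gene body. It had 0 regions in every list with each region given to 1 gene, and also without regions of other genes.

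Superfamily genes with other symbols and the adaptors of the pathway were counted from 2 further lists. Of 15 superfamily genes with other symbols, 1 had a region in the converted list, 7 in the monocyte-derived and 9 in the resident list, with 1, 12 and 10 regions in all. These are 6.67%, 46.7% and 60% of the list, beside the 43.2%, 60.2% and 54.0% of all genes. The neighbouring genes Tnf, Lta and Ltb each had 0 converted, 2 monocyte-derived and 1 resident region, in overlapping windows, and Cd40, Fas and Ltbr each had 0, 1 and 1. The 1 gene with a converted region was Relt, with 1, 3 and 2. With the lists at equal length Tnf, Lta and Ltb each had 0, 0 and 1, which turns their monocyte-derived minus resident difference round. Cd40 then had 0, 1 and 1, Fas and Ltbr each had 0, 1 and 0, and Relt had 1, 1 and 2. At equal length 1, 4 and 6 of the 15 genes had a region, or 6.67%, 26.7% and 40%, beside 43.2%, 45.9% and 45.0% of all genes.

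Of 20 adaptors and signal transducers, 16 had a region in the converted list, 20 in the monocyte-derived and 18 in the resident list, with 29, 66 and 33 regions. These are 80%, 100% and 90% of the list, above the shares of all genes given before. Fewer converted than monocyte-derived regions were found for 17 and more for 0 (85% and 0%, beside 45.3% and 1.81% of all genes), and at equal length for 9 and 4 (45% and 20%, beside 19.2% and 13.2%). Fewer converted than resident regions were found for 7 and more for 2 (35% and 10%, beside 29.2% and 4.44%), and at equal length for 1 and 8 (5% and 40%, beside 16.7% and 14.8%). More monocyte-derived than resident regions were found for 14 and fewer for 0 (70% and 0%, beside 35.0% and 7.59%), and at equal length for 12 and 2 (60% and 10%, beside 19.8% and 16.2%). Cflar, the gene of the caspase inhibitor FLIP, had 1 converted, 6 monocyte-derived and 1 resident region, Traf3 had 2, 6 and 1, and Traf5 had 5, 8 and 3. At equal length Cflar had 1, 3 and 0, Traf3 had 2, 2 and 0, and Traf5 had 5, 3 and 3, which turns its converted minus monocyte-derived difference round. These genes were named after their values were seen.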

How the data were processed

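ATAC-seq of sorted peritoneal macrophages was, per the submitters' processing notes, aligned with Bowtie2 2.2.9 to mm10. Not given in the sources used here, though able to change the number of peaks, are the caller, the handling of duplicates and of the Tn5 offset, and how replicates became 1 list. The authors deposited 1 list per group with a p-value for each peak and no counts. These p-values stop at 1e-12. The labels name each list with a p-value of 1e-05. Values above it make up 0% of the converted, 3.76% of the monocyte-derived and 22.5% of the resident list. A common threshold is thus not assured. The median of the authors' p-values was 3e-06 in the converted, 3.36e-06 in the monocyte-derived and 6.37e-06 in the resident list. P-values served to rank or filter peaks and are printed for single regions. Where values of different lists stand side by side, a common scale is not assured.

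Lists were joined and counted in Python 3.11.15 with pandas 2.3.3, numpy 2.4.6 and matplotlib 3.10.9, and the counting was tested on simulated regions. For equal length, ties in p-value went to wider peaks. Gene positions and promoters came from RefSeq tables of GRCm38.p6 on chromosomes 1 to 19 and X, without exons, so exonic and intronic positions are not stated. A region can count for several genes. Single regions were named where they lay within 1 kb of a gene end, were called in every list, were missing from the monocyte-derived list, or belonged to the 6 genes with the largest differences. The genes, lists and motifs were chosen with earlier results of these data known. Alternatives were other windows, p-values, overlaps and joins.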

Additional observations from a re-analysis of the deposited data

How the results depend on the processing

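The counts of genes below are those of the report under 1 changed choice at a time, where they moved by more than 1.5 times. At equal list length, 13 genes had a monocyte-derived region, 5 had fewer and 4 more converted than monocyte-derived regions, 5 had fewer and 7 more converted than resident regions, and 8 had fewer monocyte-derived than resident regions. With a p-value of at most 1e-10, 3 genes had a converted, 7 a monocyte-derived and 5 a resident region, 4 had fewer converted than monocyte-derived regions, 2 fewer and 0 more converted than resident, and 0 fewer and 3 more monocyte-derived than resident. With the gene body alone, 9 genes had a converted and 13 a monocyte-derived region, 9 had fewer converted than monocyte-derived regions and 2 more converted than resident. With 50 kb on each side, 26 had fewer converted than monocyte-derived and 18 fewer converted than resident regions, and 22 had more monocyte-derived than resident. With each region given to 1 gene, 2 had more converted than resident and 8 more monocyte-derived than resident regions. Without regions of other genes, an alternative added after seeing the data, 2 had more converted than resident. A p-value of at most 1e-05, an overlap of 50% of the shorter peak and joining within 200 bp moved none of the 9 counts by that much.

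The sign changed for 4 differences: Tnfrsf1b converted minus resident to -1 at 1e-10, Tnfrsf14 converted minus monocyte-derived to +2 and monocyte-derived minus resident to -2 at equal length, and Tnfrsf26 monocyte-derived minus resident to -1 with the gene body alone. The cause was not tested. No paired analysis was possible because the lists hold no replicates, and for that reason none could be left out. Depth is unknown, so it sets no limit that can be stated.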
